A study of Drosophila melanogaster with 12 samples.

Results

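Transcripts best known from sperm and testis were followed in head RNA of the fruit fly Drosophila melanogaster, in a strain with the genotype y w; tim01. The members are the genes dj, Mst84Da, Mst87F, Mst98Ca, tHMG1, ocn, don, janB and betaTub85D, taken wherever the platform annotation gives a probe set exactly 1 of these symbols. Each of 8 of the 9 names has 1 such probe set, and don has none and was left out. The 8 stand among 10844 genes named on the array. The flies carry a loss-of-function allele of timeless, a core clock gene, in a yellow, white background, and every group shares this genotype. After 3 days in a light cycle they were collected every 4 h at 12 times, first over a day of 12 h light and 12 h dark (LD, ZT2 to ZT22) and then over a day of constant darkness (DD, CT2 to CT22). The groups are DD subjective night (CT14, CT18, CT22), DD subjective day (CT2, CT6, CT10), LD dark (ZT14, ZT18, ZT22) and LD light (ZT2, ZT6, ZT10), with 3 arrays each and 1 array per time. A sample pooled 100 to 200 heads, separated with sieves from frozen, broken flies, and neither sex nor age is given in the sources used here. No wild-type sample was analysed here.

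In the fly testis, germ cells pass through a long growth phase as spermatocytes, divide by meiosis and are then remodelled into very long, thin sperm. The spermatid nucleus is packed down as histones are replaced by other basic proteins, and the tail is built from a microtubule axoneme, mitochondrial derivatives and accessory structural proteins. Most of the genes that serve these late steps are transcribed in spermatocytes, and many are far more abundant in testis than in other tissues. The head holds no testis.

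Levels are given as log2 values from RMA, a standard summary of array probes, and a difference of 1 is a 2-fold change of the array signal. The lower quartile of all probe sets lay between 2.88 and 2.97 on the 12 arrays and the median between 4.0 and 4.10, so a value under about 3 is dim and has an uncertain size. Correlations between arrays over all probe sets lay between 0.985 and 0.996, and no pair of arrays was identical. Of the head markers, the photoreceptor channel gene trp averaged 9.23, the arrestin gene Arr1 10.74 and the glial gene Gs2 9.55, while the neuronal gene elav averaged 3.41, under the array medians. The 3 arrays of a group are separate times and not replicates of 1 condition. A p-value of a group comparison therefore reflects the scatter of times around their group means, pooled over the 4 groups, and not a spread between replicates. In such bulk RNA, fewer cells of a type and less RNA per cell cannot be told apart.

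Sperm and testis transcripts were higher in the DD subjective night than in the DD subjective day. Of the 8 genes, 7 rose and Mst87F did not pass the test (limma, Benjamini-Hochberg adjusted p under 0.05 over 13966 probe sets). The median difference over the 8 genes was 0.91 on the log2 scale, with a range of 0.59 to 1.44, while the median over all probe sets was -0.003. Among all probe sets, 1.34% were called higher by this test. The members were chosen with earlier results of these data known, so setting their count beside this share is not a test. All 8 genes had every subjective-night array above every subjective-day array, as did 7.96% of all probe sets.

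**Figure D1:**
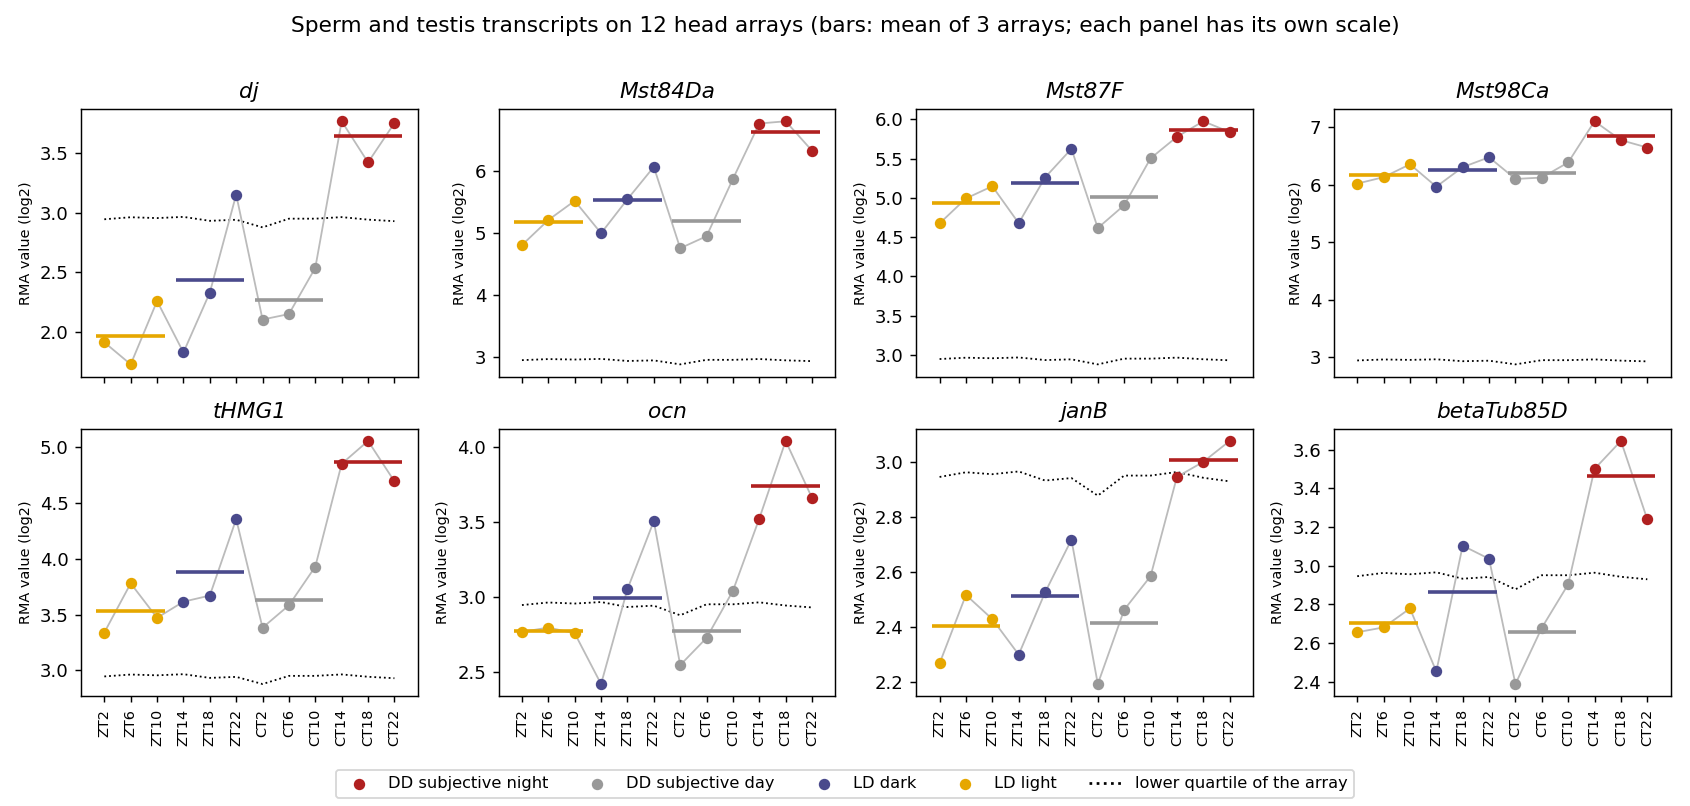
RMA values (log2, vertical axis, a separate scale in each panel) of the 8 sperm and testis genes on the 12 arrays in collection order (horizontal axis). Points are single arrays, coloured bars are means of 3 arrays and the dotted line is the lower quartile of all probe sets. The 3 highest arrays of every gene are CT14, CT18 and CT22.

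Mst84Da, Mst87F and Mst98Ca belong to a family of sperm tail proteins rich in cysteine, glycine and proline. All 12 values of each of the 3 genes lay above the array median. Mst84Da read 6.76, 6.80 and 6.32 at CT14, CT18 and CT22 in the DD subjective night, against 4.75, 4.94 and 5.87 at CT2, CT6 and CT10 in the subjective day. Its difference of 1.44 (SE 0.279, adjusted p = 0.0169) is a 2.71-fold higher signal and the largest of the 8.

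Mst98Ca was at 7.11, 6.78 and 6.65 in the subjective night, against 6.10, 6.13 and 6.39 in the subjective day. The night arrays lay above the day arrays by a smaller margin than for Mst84Da, with a difference of 0.64 (SE 0.137, adjusted p = 0.03). Mst87F was at 5.78, 5.98 and 5.84 in the subjective night, against 4.62, 4.91 and 5.50 in the subjective day. Its values at night were close together (SD 0.10, n = 3 arrays) and those of the day were not (SD 0.45), and its difference of 0.86 (SE 0.218, adjusted p = 0.0759) missed the threshold.

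The gene dj (don juan) encodes a protein of the sperm tail. It was at 3.77, 3.42 and 3.75 in the subjective night, against 2.11, 2.15 and 2.54 in the subjective day. The difference was 1.38 (SE 0.24, adjusted p = 0.0105). All 3 night arrays lay above the lower quartile of their array and all 3 day arrays below it, so the day level, and with it the 2.61-fold difference, is uncertain in size.

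Among the genes of the nucleus and of the microtubules, tHMG1 had the smallest p-value of the 8. It encodes an HMG-box protein that appears in spermatid nuclei while histones are being replaced. Its values were 4.85, 5.05 and 4.69 in the subjective night, against 3.38, 3.58 and 3.93 in the subjective day, and no array lay below the lower quartile. The difference was 1.23 (SE 0.179, adjusted p = 0.00398). The testis-specific beta-tubulin gene betaTub85D, whose product builds the meiotic spindle and the axoneme, was at 3.50, 3.65 and 3.24 in the subjective night, against 2.39, 2.68 and 2.90 in the subjective day. It rose by 0.81 (SE 0.156, adjusted p = 0.0169). All 3 of its day arrays were below the lower quartile.

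The genes ocn and janB are related to each other and to janA and are read in the testis. In the subjective night ocn was at 3.52, 4.04 and 3.66, against 2.55, 2.73 and 3.04 in the subjective day, with a difference of 0.97 (SE 0.203, adjusted p = 0.0275). The gene janB read 2.95, 3.0 and 3.08 in the subjective night, against 2.19, 2.46 and 2.58 in the subjective day. Its difference of 0.59 (SE 0.11, adjusted p = 0.0142) was the smallest of the 8, and 10 of its 12 values lay below the lower quartile of their array.

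The count of 7 depended on single arrays: without CT2 or CT6 it was 1 (tHMG1), without CT14 it was 2 (tHMG1 and janB) and without CT18 it was 2 (dj and tHMG1), while without CT10, ZT14 or ZT22 Mst87F passed too. With the hours since the first collection as a covariate 0 of the 8 passed by limma, 1 was under an unadjusted p of 0.05 and the median difference was 0.41, and with a trended robust variance prior tHMG1 and janB did.

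In the LD day the dark phase and the light phase were not distinguished for any of the 8 genes. By limma 0 of the 8 passed the adjusted threshold, and 0 were under an unadjusted p of 0.05, while 0.0286% of all probe sets were called. All 8 differences were positive, between 0.08 for Mst98Ca and 0.47 for dj, with a median of 0.23, and the groups overlapped for every gene. For Mst84Da the 3 dark arrays read 4.99, 5.54 and 6.06 at ZT14, ZT18 and ZT22, against 4.80, 5.21 and 5.51 at ZT2, ZT6 and ZT10 in light. For tHMG1 they read 3.62, 3.67 and 4.35 in the dark, against 3.34, 3.78 and 3.47 in light. ZT14 was the lowest and ZT22 the highest dark array of both genes, and ZT14 lay above ZT2 in light. Without ZT14 the median over the 8 genes was 0.49, with 6 under an unadjusted p of 0.05, while without ZT2 it was 0.15 and without ZT22 it was 0.05, with values from -0.04 to 0.11. With collection time as a covariate all 8 differences were negative, between -0.64 and -0.12.

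ZT22 was the highest LD array for 7 of the 8 genes and ZT18 for betaTub85D. The gene dj read 1.83, 2.33 and 3.15 in the dark phase, against 1.91, 1.73 and 2.26 in light, and ZT22 was its 1 LD array above the lower quartile. For ocn the dark-phase values were 2.42, 3.05 and 3.51, against 2.77, 2.80 and 2.76 in light. Its 3 light values were close together (SD 0.02, n = 3 arrays), while those in the dark were not (SD 0.55). The dark-phase values of betaTub85D were 2.45, 3.10 and 3.04, against 2.66, 2.68 and 2.78 in light.

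The night minus day differences of the 2 days were themselves compared. DD exceeded LD for all 8 genes, by 0.48 (janB) to 1.08 (Mst84Da) with a median of 0.70. None passed after adjustment by limma (0 of 13966 probe sets, 0%), and the smallest adjusted p was 0.406, for tHMG1. Before adjustment, 7 of the 8 genes and 1025 of all probe sets had p under 0.05. The larger difference in DD was therefore not called, and without ZT14 its median was 0.45.

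**Figure D2:**
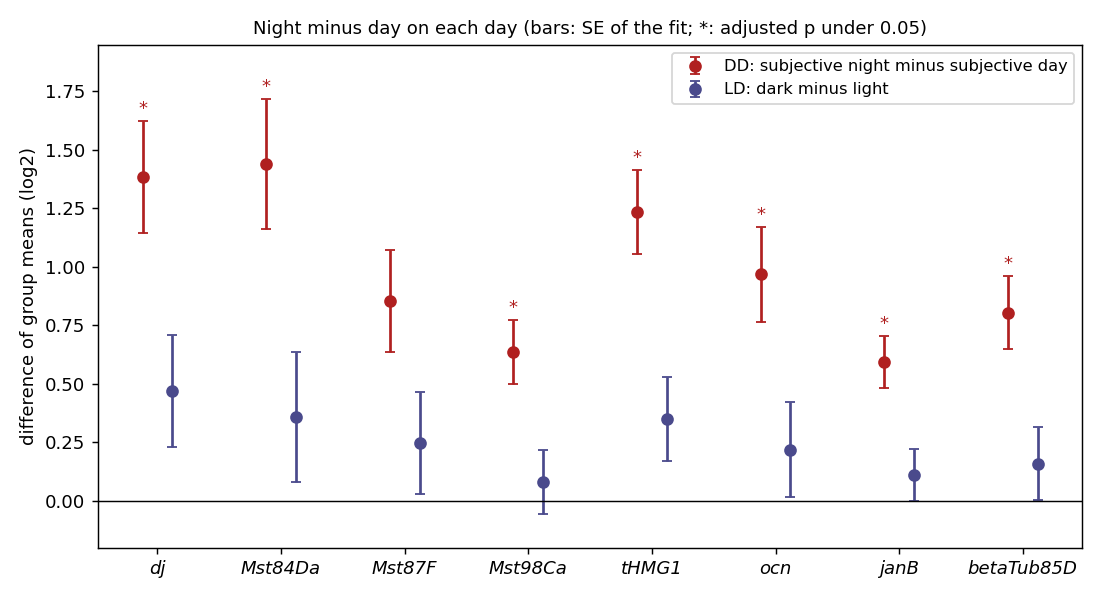
Differences of group means (log2, vertical axis) for each of the 8 genes, with DD subjective night minus subjective day in red and LD dark minus LD light in blue. Bars are standard errors of the limma fit with 3 arrays per group, and stars mark adjusted p under 0.05. The red points lie between 0.59 and 1.44 and the blue ones between 0.08 and 0.47.

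Both nights were dark, so the DD subjective night could be set against the LD dark phase at the same clock hours. All 8 genes were higher in DD, by 0.49 to 1.21 with a median of 0.71, against -0.02 over all probe sets. All 8 also had every DD night array above every LD dark array, as did 5.34% of all probe sets. Of the 8 genes, tHMG1 rose, by 0.99 (SE 0.179, adjusted p = 0.0405), where 0.158% of all probe sets were called higher. The difference of dj was 1.21 (SE 0.24, adjusted p = 0.0557) and that of Mst84Da 1.10 (SE 0.279, adjusted p = 0.126). All 8 were under an unadjusted p of 0.05, as were 1355 of the 13966 probe sets. Without ZT14 that count was 7 of the 8, with a median difference of 0.46, and with collection time as a covariate it was 1.

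The call of tHMG1 was lost without any 1 of ZT2, ZT10, ZT14, ZT18, CT6, CT14, CT18 or CT22, with dim probe sets left out, with collection time as a covariate, with only the arrays compared, and under the trended robust prior. Without ZT22 the count was 6, without CT10 it was 3 and without CT2 it was 2.

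The gap between the nights was wide in the first night hours and narrow at the end. At hour 14 the DD array exceeded the LD array by 0.65 (janB) to 1.94 (dj), a ratio of 1.56 to 3.83, with a median of 1.12. At hour 18 the differences lay between 0.47 and 1.38 with a median of 0.85. At hour 22 they lay between 0.15 and 0.60 with a median of 0.24. All 8 genes were positive at each of these 3 hours. There is 1 array per time, so a single hour has no test, and the 8 values of an hour come from the same 2 arrays. The 3′ minus 5′ difference of the control eIF-4a, a sign of RNA quality, was lowest on CT14 (2.90) and highest on ZT14 (3.70). That of GAPDH was also lowest on CT14 (2.10) and highest on ZT14 (2.58). Actin was at 1.96 on CT14 and 2.30 on ZT14, and 18S rRNA at 0.24 and 0.09. The part of RNA quality in the gap was not tested.

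By day no difference between the 2 days was called. DD subjective day minus LD light lay between -0.05 (betaTub85D) and 0.30 (dj) with a median of 0.03, and 0 of the 8 genes passed by limma, with 0 under an unadjusted p of 0.05. Of all probe sets 0% were called and 1049 were under an unadjusted p of 0.05. The sign of the median rested on single arrays, at 0.17 without CT2, -0.11 without CT10 and -0.05 without ZT2. With collection time as a covariate all 8 differences were negative, between -1.83 and -0.47 with a median of -1.06, and 5 of the 8 were under an unadjusted p of 0.05. At hour 2 the DD array was the higher one for 3 of the 8 genes and at hour 6 for dj only. At hour 10 it was higher for all 8, by 0.03 to 0.46.

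**Figure D3:**
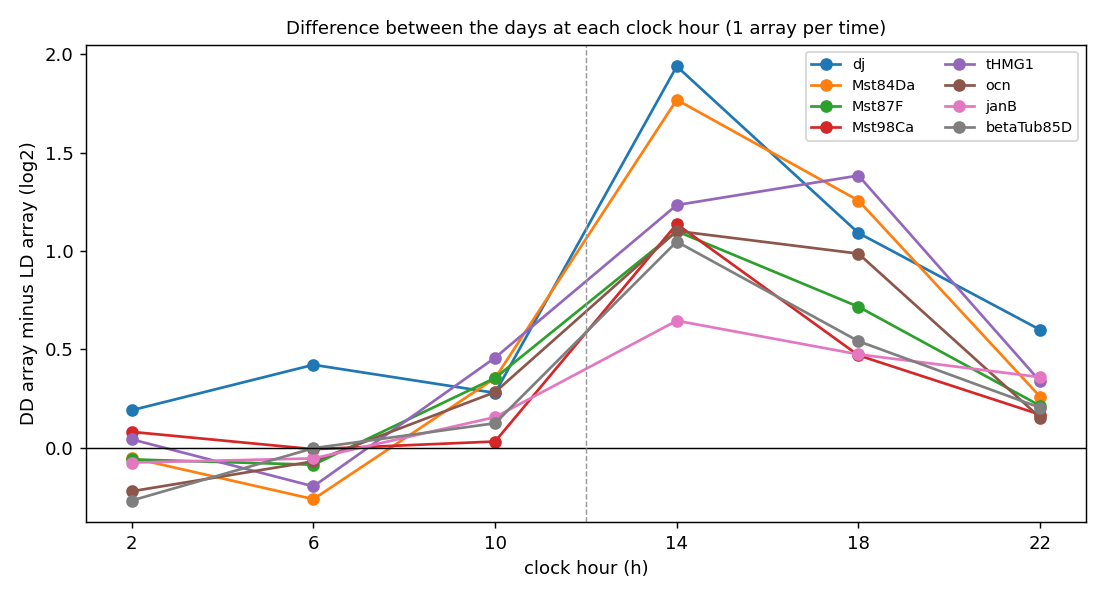
DD array minus LD array (log2, vertical axis) at each clock hour (horizontal axis, h) for the 8 genes, with 1 array per time and the dashed line between day and night hours. Differences lie between -0.27 and 0.46 at hours 2, 6 and 10, between 0.65 and 1.94 at hour 14 and between 0.15 and 0.60 at hour 22.

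In collection order the 8 genes followed similar paths, given here as single arrays with no test. All 8 were lower at CT2 than at ZT22, with a median difference of -0.97, and CT2 held the lowest value of 4 of them. All 8 were higher at CT6 than at CT2, at CT10 than at CT6 and at CT14 than at CT10, with medians of 0.20, 0.33 and 0.66. At CT22 dj and janB were higher than at CT18 and the other 6 were lower. CT2 had the lowest array median, and the median difference over all probe sets was 0.07 for CT6 minus CT2.

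A cosine curve with a period of 24 h was fitted to each day, which covers 1 cycle. Its p-value reflects the scatter of times around the fitted curves, pooled over the days, and not a spread between replicates. In DD it was called by limma for 4 of the 8 genes, Mst84Da, tHMG1, ocn and betaTub85D, and for 0.78% of all probe sets. Mst84Da had an amplitude (mean to peak) of 1.12 (SE 0.166, adjusted p = 0.0211), tHMG1 of 0.89 (SE 0.131, adjusted p = 0.0211), ocn of 0.71 (SE 0.116, adjusted p = 0.0305) and betaTub85D of 0.61 (SE 0.092, adjusted p = 0.0235). The fitted peaks of all 8 lay between hours 16.2 and 17.5. The count was 0 without CT2, CT6, CT14 or CT18, and 7 without ZT2 or with only the DD arrays. It was 6 without ZT22 and 1 with collection time as a covariate or with the trended robust prior, and the covariate took the median amplitude to 0.38, against 0.68 without it. In LD 0 of the 8 genes passed by limma, with ocn under an unadjusted p of 0.05 (amplitude 0.35, SE 0.116), while 0.0644% of all probe sets were called. The LD curves had amplitudes of 0.09 to 0.44 with a median of 0.23. Without ZT2 the median was 0.40 with 5 of the 8 under an unadjusted p of 0.05, without ZT10 it was 0.36 with 3 and without ZT22 it was 0.12 with 0, all by limma. With collection time as a covariate 5 were under that p.

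Other late sperm genes were mostly positive, with few calls. Of 30 measured genes of sperm structure and spermatid differentiation, 2 rose and 0 fell in the DD subjective night against the day, 26 differences were positive, and the median was 0.16. Of all probe sets, 1.34% were called higher. In limma 12 of the 30 were under an unadjusted p of 0.05, as were 1263 of the 13966 probe sets. The 2 that rose were Mst84Db (0.83, SE 0.153, adjusted p = 0.014), of the same protein family as Mst84Da, and S-Lap8 (0.95, SE 0.18, adjusted p = 0.0159), which encodes a leucyl aminopeptidase of sperm. Next by p-value were Mst77F, a gene for a protein of the condensed sperm nucleus (0.71, SE 0.168, adjusted p = 0.0515, below the lower quartile on 11 arrays), and Mst98Cb (0.69, SE 0.166, adjusted p = 0.0595). Of the 30 genes, 12 lay below the lower quartile on all 12 arrays, and these had a median difference of 0.12.

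Genes that act earlier, in spermatocytes, and testis paralogs of household genes were not called. Of 24 measured, 0 passed by limma, 5 were under an unadjusted p of 0.05, 14 differences were positive and the median was 0.02. Of all 13966 probe sets, 1263 were under that p. The smallest adjusted p was that of COX4L, a testis paralog of a cytochrome c oxidase subunit gene (0.49, SE 0.117, adjusted p = 0.0517), dim on 11 arrays. It was followed by Prosalpha6T (0.28), a testis proteasome subunit gene, Pglym87 (0.37), a phosphoglycerate mutase gene, and tomboy20 (0.27), a testis paralog of a mitochondrial import receptor gene. Prosalpha6T lay below the lower quartile on 12 arrays, Pglym87 on 1 and tomboy20 on 11. On all 12 arrays 11 of the 24 lay below the lower quartile. The 8 measured germline genes of both sexes had differences between -0.10 and 0.06, with 0 called by limma and 0 under an unadjusted p of 0.05. The smallest p-values were those of piwi (-0.10), bgcn (0.06), bam (-0.04) and otu (0.03). Of the 8 germline genes, 4 lay below the lower quartile on all 12 arrays, piwi, bgcn and bam among them. Their differences are therefore uncertain in size.

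By the RefSeq gene table (Release 6 assembly), all 8 members lie on chromosome arm 3R, which holds 25.2% of the genes with a named probe set and a place in that table. Several stand beside a relative. Mst84Db, the neighbour of Mst84Da, read 7.08, 7.14 and 6.80 in the subjective night, against 6.05, 6.10 and 6.40 in the subjective day. Mst84Dc, in the same cluster, was at 7.39, 7.43 and 6.89 in the night, against 5.30, 5.81 and 6.60 in the day, with a difference of 1.34 (SE 0.365, adjusted p = 0.108). Mst84Dd differed by 0.73 (adjusted p = 0.0604).

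The pair at 98C was close in size, with Mst98Ca at 0.64 and Mst98Cb at 0.69. Beside tHMG1, which rose by 1.23, tHMG2 had a difference of 0.32 (SE 0.12, adjusted p = 0.344), with 4.55, 4.61 and 4.21 in the night, against 3.94, 4.26 and 4.20 in the day. Next to dj, its relative djl stayed between 1.68 and 1.92 on the 12 arrays, below the lower quartile on each (difference 0.02, SE 0.072). The difference between neighbours was not tested, and the part of cross-hybridisation between relatives was not tested. The genes ocn and janB are neighbours too, and janA, the gene after them, was not analysed here.

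Tubulin genes of other tissues were not called. Of 4 measured somatic tubulin genes 0 passed by limma and 0 were under an unadjusted p of 0.05, with a median difference of 0.07. The widespread beta-tubulin gene betaTub56D was at 6.57, 6.88 and 6.82 in the subjective night, against 6.74, 6.68 and 6.74 in the subjective day (difference 0.04, SE 0.124). The others were at 0.19 (alphaTub84D), 0.10 (betaTub97EF) and -0.07 (betaTub60D). The alpha-tubulin gene alphaTub85E, counted here with the testis paralogs and not with the somatic tubulins, stayed between 6.94 and 7.37. The part of cross-hybridisation with other tubulin genes in its level was not tested.

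Some transcripts of other body tissues also rose on the same arrays. Of 19 measured genes of the male accessory gland and ejaculatory duct, which make seminal fluid, 9 rose in the DD subjective night against the day, with a median of 1.10. Among them were Acp53C14b (1.10, adjusted p = 0.00673), Acp36DE (1.91, adjusted p = 0.00708), Acp26Ab (0.82, adjusted p = 0.0112) and Acp32CD (0.67, adjusted p = 0.0112). In that order they lay below the lower quartile on 5, 6, 8 and 12 of the 12 arrays. Of 23 midgut genes 14 rose, with a median of 1.67, and of 15 thorax muscle genes 4 rose, with a median of 0.29. Of all probe sets, 1.34% were called higher. These lists too were chosen with earlier results of these data known, so setting their counts beside this share is not a test. The midgut genes with the smallest p-values were the maltase gene Mal-A1 (1.67), the protease genes Jon99Ci (0.85) and Jon99Fii (2.44) and the amylase gene Amy-d (1.35). The muscle genes that rose were Act88F (1.31), Act79B (0.42), fln (1.02) and TpnC4 (1.09), which encode 2 actins, flightin and a troponin C. Of these, fln lay below the lower quartile on 6 arrays and TpnC4 on 9. For Act79B and Jon99Fii the part of cross-hybridisation with related genes was not tested. None of the genes of these 3 lists fell.

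The mean level of the 19 accessory gland genes ranged from 4.97 to 5.24 over the 3 subjective-night arrays and from 3.10 to 4.51 over the subjective-day arrays. It was 3.14 to 4.67 in LD dark and 3.01 to 3.74 in LD light. Its highest LD array was ZT22, as for 7 of the 8 sperm and testis genes, and 4 of its genes lay below the lower quartile on all 12 arrays. The midgut mean was 6.81 to 7.05 in the subjective night and 4.82 to 5.96 in the subjective day, and that of thorax muscle 6.13 to 6.29 and 5.63 to 5.97. The part of these tissues in the result was not tested. The mean of the 8 sperm and testis genes was 4.65 to 4.84 in the subjective night, against 3.51 to 4.10 in the subjective day, 3.53 to 4.37 in LD dark and 3.56 to 3.84 in LD light.

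Female and head transcripts did not pass on those arrays. Of 15 measured follicle and eggshell genes 0 passed by limma and 0 were under an unadjusted p of 0.05, with differences between -0.14 and 0.18, and the smallest p-values were those of Cp38 (-0.13), Cp18 (0.18), Fcp3C (-0.14) and Vm34Ca (0.18). The yolk protein genes Yp1, Yp2 and Yp3, which females express in fat body and ovary, had differences of -0.04, 0.09 and 0.03, and their mean lay between 13.52 and 13.62 on every array. Of 5 photoreceptor, 6 neuron and 5 glia genes 0 passed by limma and trp (-0.19) was under an unadjusted p of 0.05, with median differences of -0.06, 0.02 and 0.02. Of the 4 controls with 3′ and 5′ probe sets, whose difference is a sign of RNA quality, eIF-4a was at 2.90 to 3.11 in the subjective night and 3.10 to 3.24 in the subjective day. Actin was at 1.96 to 2.52 in the night and 2.04 to 2.40 in the day, GAPDH at 2.10 to 2.24 and 2.19 to 2.31, and 18S rRNA at -0.16 to 0.24 and -0.03 to 0.12. On ZT14, the lowest array of Mst98Ca and ocn, eIF-4a (3.70) and GAPDH (2.58) had their highest values, while actin (2.30) and 18S rRNA (0.09) did not. On CT14, the highest array of dj and Mst98Ca, eIF-4a (2.90), actin (1.96) and GAPDH (2.10) had their lowest values. There 18S rRNA was at 0.24. The part of RNA quality in the results was not tested.

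**Figure D4:**
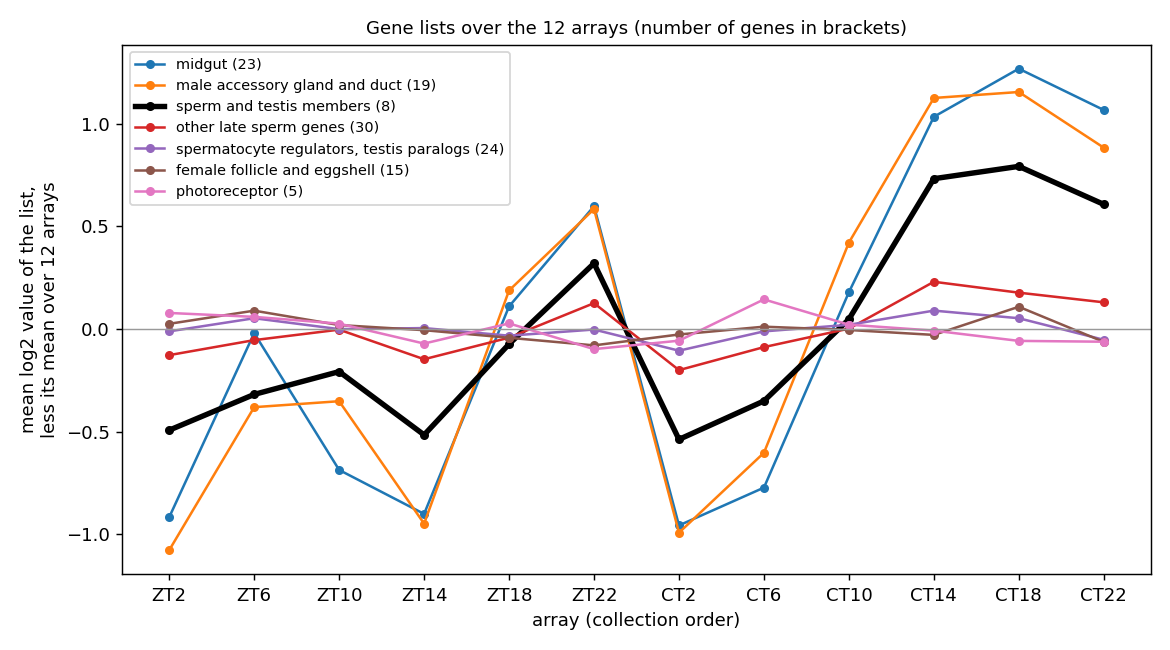
Mean log2 value of each gene list less its own mean over the 12 arrays (vertical axis) in collection order (horizontal axis), with the number of genes in brackets. The sperm and testis members (black), midgut and male accessory gland lists are highest at CT14, CT18 and CT22 and next highest at ZT22, while follicle and photoreceptor lists stay near 0.

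The 8 genes were also like each other and like many more genes. The values of each gene over the 12 arrays had a Pearson r between 0.93 (Mst98Ca) and 0.98 (Mst84Da) with the mean of the other 7 after scaling. Of 422 other genes with an SD of 0.2 or more over the arrays, 143 had r of 0.9 or more with the scaled mean of the 8. All these genes share the same 12 arrays, and r is given as a description.

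The 10 genes with the highest r were CG16904 (0.993), Mst84Db, CG9029 and CR17567 (0.989 each), CG8701 (0.988), and CG3330, CG4836, CG31988, Spn38F and CG10252 (0.983 each). Mst84Db is the 1 of them that belongs to a list used here. CG16904 read 7.17, 7.23 and 6.93 in the subjective night, against 4.44, 4.85 and 5.92 in the subjective day. Spn38F, a serpin gene, was at 3.50, 3.74 and 3.49 in the night, against 1.94, 2.16 and 2.51 in the day. The 10 were chosen for their likeness to genes that are highest at CT14, CT18 and CT22, so their own night minus day differences, 0.54 (CG3330) to 2.04 (CG16904), follow from the choice and support nothing.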

How the data were processed

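Biotin-labelled target from 25 µg of total RNA of pooled heads was hybridised to 1 array per time, 12 in all. Per the submitters' processing notes, the deposited log2 values come from RMA, which subtracts background, brings arrays to a common scale and combines each probe set's probes. Neither the version of RMA nor which arrays entered it together was stated. The table has 14010 probe sets, and 13966 were tested after the removal of 44 controls. The annotation gave 1 symbol to 12443, several to 327 and none to 1196, and Entrez identifiers changed no symbol. A gene with several probe sets is represented by the one with the highest mean, and each member has 1.

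Means of 4 groups were fitted to all 12 arrays with limma 3.58.1 in R 4.3.3 (8 residual degrees of freedom), with two-sided moderated tests of 5 contrasts. Cosine and sine terms were fitted for each day (6 residual degrees of freedom) and tested with the moderated F test. Benjamini-Hochberg adjustment covered all tested probe sets. The scripts were tested on simulated data. Precision is limited by the number of arrays. LD preceded DD, so lighting cannot be told apart from the day of collection.

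The members and gene lists were chosen with earlier results of these data known. The rule for named genes takes the members, the 4 smallest p-values of each other list in the DD contrast, and the 10 genes most like the members among those with an SD of 0.2 or more. Mst84Dc, Mst84Dd, tHMG2, djl, alphaTub85E and elav were added as neighbours, relatives or head markers after their values were seen. Alternatives were quantile normalization, median centring, a filter on dim probe sets, a trended robust prior, array weights, fewer arrays, a collection time covariate, each array left out in turn, and a clock hour block.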

Additional observations from a re-analysis of the deposited data

How the results depend on the processing

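Over the 12 fits that left out 1 array, the members called in DD subjective night against day ranged from 1 to 8, in DD subjective night against LD dark from 0 to 6 and in the DD harmonic from 0 to 7, and all probe sets called in the first ranged from 34 to 254 (main 194). With dim probe sets left out, 4 of the 5 remaining members passed in the first comparison and 0 in the second, with the trended robust prior 2, 0 and, in the harmonic, 1 (101 probe sets in all), and with collection time as a covariate 0, 0 and 1 (0 probe sets in all). With only the arrays compared the counts were 8, 0 and 7, and with median centring or array weights the second was 2. The collection time covariate turned Mst87F to -0.033 in the first comparison and, in the second, dj to -0.36, Mst84Da to -0.75, Mst87F to -1.10, ocn to -0.53, janB to -0.33 and betaTub85D to -0.12, all with adjusted p of 0.92 or more. It also made all 8 differences negative in LD dark against light (-0.64 to -0.12) and in DD subjective day against LD light (-1.83 to -0.47), with 0 called by limma and 2 and 5 under an unadjusted p of 0.05. That covariate rises with the order of the groups; the cause was not tested.

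With clock hour as a replicate block the second count was 3 (dj, tHMG1 and janB) and the count for DD subjective day against LD light stayed 0. The labels give hours, not replicate numbers, and deviations of same-hour arrays had correlations between -0.08 and 0.32, so the hours were not taken to pair the arrays. The counts of 0 in LD dark against light, DD day against LD light, the contrast between days and the LD harmonic were 0 in every alternative run, by limma, although sizes moved: leaving out 1 array gave medians of 0.05 to 0.49 in the first, -0.11 to 0.17 in the second, 0.45 to 0.92 in the third and 0.12 to 0.40 in the LD harmonic, with up to 6, 0, 8 and 5 members under an unadjusted p of 0.05. The mean over several probe sets was not run, since each member has 1, and the contrast between days already uses all 12 arrays. Dimness limits dj, ocn, janB and betaTub85D, whose day values lay mostly below the lower quartile.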
